A study of Danio rerio with 48 samples.

Results

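The phototransduction cascade downstream of the opsins was followed in the heads of zebrafish larvae through 46 genes named one by one: the subunits of transducin, the phosphodiesterase, the cyclic nucleotide-gated channel, the guanylate cyclases and their activators, the receptor kinases and recoverins, the arrestins, and the proteins that end the response. The members were taken by gene name from the table of expected counts. Of the 46, 44 were in that table of 25445 genes, and all 44 passed the filter on low counts that left 20723 genes to test. They comprised 11 rod, 20 cone and 13 shared or broadly expressed members. The rod channel gene cnga1 and the cone phosphodiesterase gene pde6hb were not analysed here.

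PolyA RNA was read from 48 pools of 15 heads, cut off in front of the swim bladder, from zebrafish of a mixed wild-type stock. Larvae had been kept from 0 days post fertilisation (dpf) in perfluorohexanesulfonate (PFHxS) at 7.87, 14 or 25.1 µM, or in the vehicle alone, and all groups, the vehicle included, received 0.4% DMSO. Heads were collected at 4 or 5 dpf, which gave 8 groups of 6 libraries: at 5 dpf and at 4 dpf, DMSO and the 3 concentrations. A library is named here by its group and the letter of its title, and since nothing in the labels ties a pool to a clutch, p-values measure the spread between pools, which may be partly technical.

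In a photoreceptor, an opsin that has caught light activates transducin, whose alpha subunit lifts the gamma subunit of phosphodiesterase 6 off its catalytic subunits. The enzyme then breaks down cyclic GMP, channels in the outer segment close, and the cell hyperpolarises. Recovery needs a kinase and an arrestin to silence the opsin, the RGS9 complex to silence transducin, and guanylate cyclases with their calcium-sensing activators to restore cyclic GMP. Rods and cones use separate genes for most of these steps, and zebrafish carry duplicates of many of them; in zebrafish larvae vision rests on cones before rods contribute.

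A library held a median of 22.9 M counts (M stands for 1000000), the smallest 16.6 M and the largest 39.2 M. Levels are CPM, counts per M, on library sizes adjusted by TMM, the trimmed mean method of edgeR, and they are compared between libraries for 1 gene, not between genes, since transcript lengths were not used. In some libraries many members were at an end of their group's range. Library I of 7.87 µM at 5 dpf was the lowest of its group in 26 of the 44 members, and library D of the same group was the highest in 25. At 14 µM and 4 dpf library H was the lowest in 19 members and library B the highest in 17. At 7.87 µM and 4 dpf library H was the lowest in 16 and library B the highest in 19. Library E of 14 µM at 5 dpf was the lowest in 21, and at 25.1 µM and 4 dpf library F was the highest in 25 and library E the lowest in 16. In DMSO at 4 dpf library E was the lowest in 17 and library F the highest in 16.

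The first comparison asked how the cascade changed over 1 day of growth, from larvae of DMSO at 5 dpf set against those at 4 dpf. A gene is called here when its adjusted p (Benjamini and Hochberg, over all 20723 genes, edgeR's quasi-likelihood test) is under 0.05. In these libraries 8 of 44 members were called higher at 5 dpf (18.2%) and 14 lower (31.8%). Among all genes tested 21.7% were called higher and 20.2% lower, so that the share of members called higher was near the background. At an unadjusted p under 0.05 there were 24 members, against 50.1% of all genes. In 7 members every 5 dpf library exceeded every 4 dpf library, and in 13 every one was lower, against 14% and 14.5% of all genes. The median log2 fold change of the members was 0.09, and that of all genes 0.20. Heads are mixtures, so fewer photoreceptors and less RNA per photoreceptor cannot be told apart.

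These directions depend on the scaling. TMM factors were 1.1 to 1.925 at 5 dpf and 0.566 to 1.098 at 4 dpf, and with library totals in their place the median of all genes moved to a log2 fold change of 0.88, with 26 members called higher and 3 lower. On the deposited quantile-normalized values 11 were called higher and 6 lower, with a median of all genes at 0.01. Of the 22 calls, 10 were made in the same direction by all 5 analyses (TMM, relative log expression, library totals, limma on quantile values, and DESeq2). The 7 higher ones were pde6ha, guca1c, guca1d, guca1g, arr3b, rcvrn2 and rgs9bp, and the 3 lower ones gngt1, gngt2a and gngt2b. As a share of the 20723 genes, 12.2% were called higher and 6.36% lower by all 5. The text below gives all 22 calls, with most weight on these 10 and on ratios of counts between members of the same library. Ratios are given for chosen pairs, and the share of other gene pairs that separate by age was not computed. Of the pairs computed but left out, only rcvrn2 to rcvrn3 did not overlap between ages in DMSO. Those that overlapped were grk7b to grk7a, cngb3.1 to cngb3.2, gngt2b to gngt2a, pde6gb to pde6ga and pde6b to pde6a. So did guca1d, guca1g and guca1e to guca1c, gucy2f to gucy2d and rgs9bp to rgs9a. The pairs given by age are thus mostly those that separated, and they do not show how often ratios of members separate. A scaling factor per library does not change such ratios, whereas quantile normalization can.

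**Figure D1:**
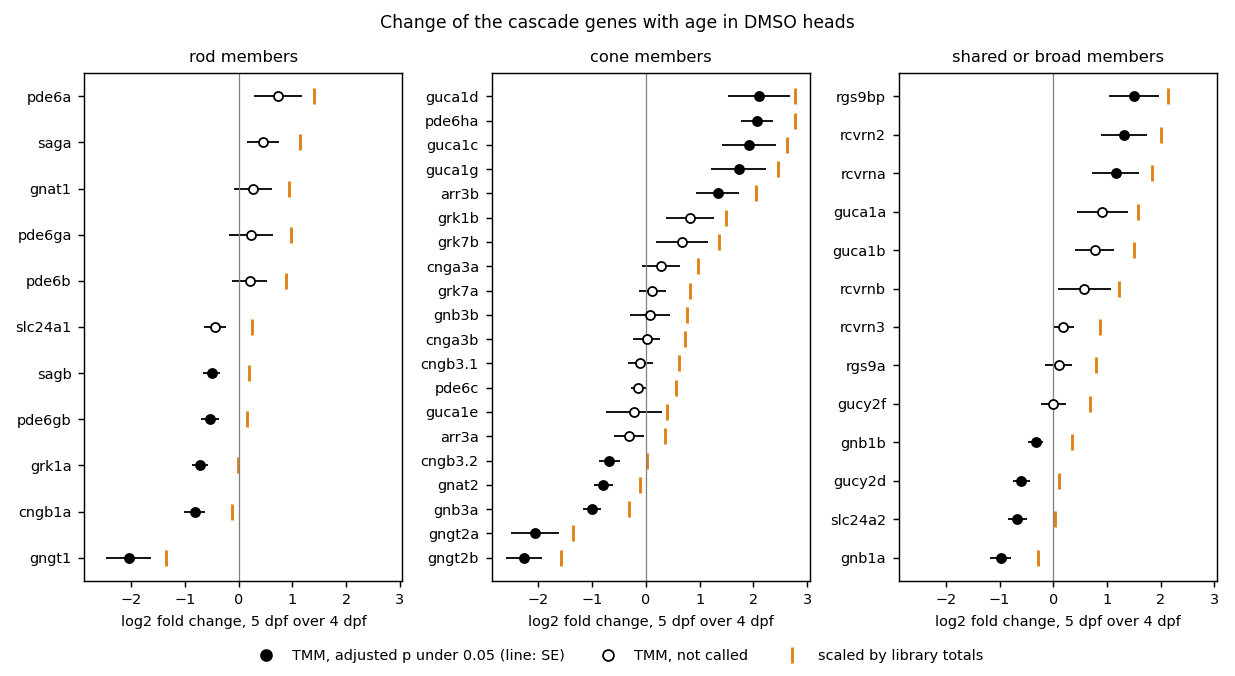
Log2 fold change of 44 members at 5 dpf over 4 dpf in DMSO heads (x axis), by class. Points are TMM-scaled values with their SE as a line, filled where the adjusted p was under 0.05, and orange ticks are the same fold changes scaled by library totals, which lie to the right of every point. The 3 transducin gamma genes lie at or below -2.05 on the TMM scale, and no rod member was called higher on that scale. With library totals the rod members gnat1, pde6a, pde6b, pde6ga and saga were called higher.

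Transducin is built of an alpha, a beta and a gamma subunit, and its gamma genes fell most in the cascade. The rod gamma gene gngt1 (GRCz11 chromosome 19, 40856534 to 40859469) had a lowest, median and highest level of 7.7, 9.97 and 20.1 CPM at 5 dpf, against 23.7, 46.1 and 74.9 CPM at 4 dpf. No 5 dpf library reached the lowest 4 dpf library. Its log2 fold change was -2.05 ± 0.41, with an adjusted p of 0.000106 in edgeR's test. The cone gamma gene gngt2b (chromosome 12, 3249054 to 3252264) had 116, 141 and 279 CPM against 457, 745 and 1309 CPM, a log2 fold change of -2.27 ± 0.33. Its paralog gngt2a (chromosome 3, 23092762 to 23096142), counted far less often, had 0.979, 1.79 and 2.1 CPM against 2.36, 6.98 and 12.3 CPM and a log2 fold change of -2.07 ± 0.44. Both cone genes, too, had 5 dpf ranges wholly below the 4 dpf ranges.

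The alpha and beta subunits moved less. The cone alpha gene gnat2 had 1097, 1516 and 1656 CPM at 5 dpf and 1905, 2482 and 3020 CPM at 4 dpf, without overlap (-0.79 ± 0.18). Its sign was not stable, with a log2 fold change of -0.11 under library totals and 0.25 on quantile values. The gene overlaps ampd2b on the opposite strand, and as the use of strand in counting is not given in the sources used here, reads of such pairs could not be told apart. The rod alpha gene gnat1 was not called, with 80.6, 90.1 and 94.5 CPM against 60.3, 72.7 and 93.3 CPM (0.27 ± 0.35). Within a library, gnat1 counts came to a median of 5.85% (5.33 to 8.22%) of gnat2 counts at 5 dpf, against 2.95% (2 to 4.04%) at 4 dpf, and all 6 ratios at 5 dpf were above all 6 at 4 dpf. Set against its own alpha subunit, gngt1 came to 10.9% (9.51 to 22.3%) of gnat1 at 5 dpf and 65.3% (35.9 to 99.8%) at 4 dpf. The cone pair behaved alike in direction: gngt2b came to 9.46% (7.93 to 16.8%) of gnat2 at 5 dpf and 30.7% (17.5 to 44.3%) at 4 dpf, and in both pairs all 6 ratios at 5 dpf lay below all 6 at 4 dpf.

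Of the beta genes, gnb3a (-1.0 ± 0.17) and the broadly expressed gnb1a (-0.98 ± 0.20) and gnb1b (-0.33 ± 0.14) were called lower, and gnb3b was not called (0.08 ± 0.38). Here gnb3a was put in the cone class, but it also stood in the list of bipolar cell genes below. Its change can therefore not be assigned to cones. Under library totals gnb3a and gnb1a kept a negative sign (-0.32 and -0.28), and gnb1b turned to 0.36. The call of gnb1b (adjusted p 0.0473, edgeR) was also lost with relative log expression, on quantile values and with a term for the block of columns, and it was made in 1 of 12 fits that left out a library. Within libraries gnb1b came to 37% (32.2 to 40.8%) of gnb1a at 5 dpf and 22.6% (19.9 to 31.6%) at 4 dpf, with no overlap. The paralogs gnb3b and gnb3a also separated: gnb3b was 1355% (893 to 1669%) of gnb3a at 5 dpf, and 593% (385 to 843%) at 4 dpf. Whether this ratio compares genes of the same cell type was not tested.

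**Figure D2:**
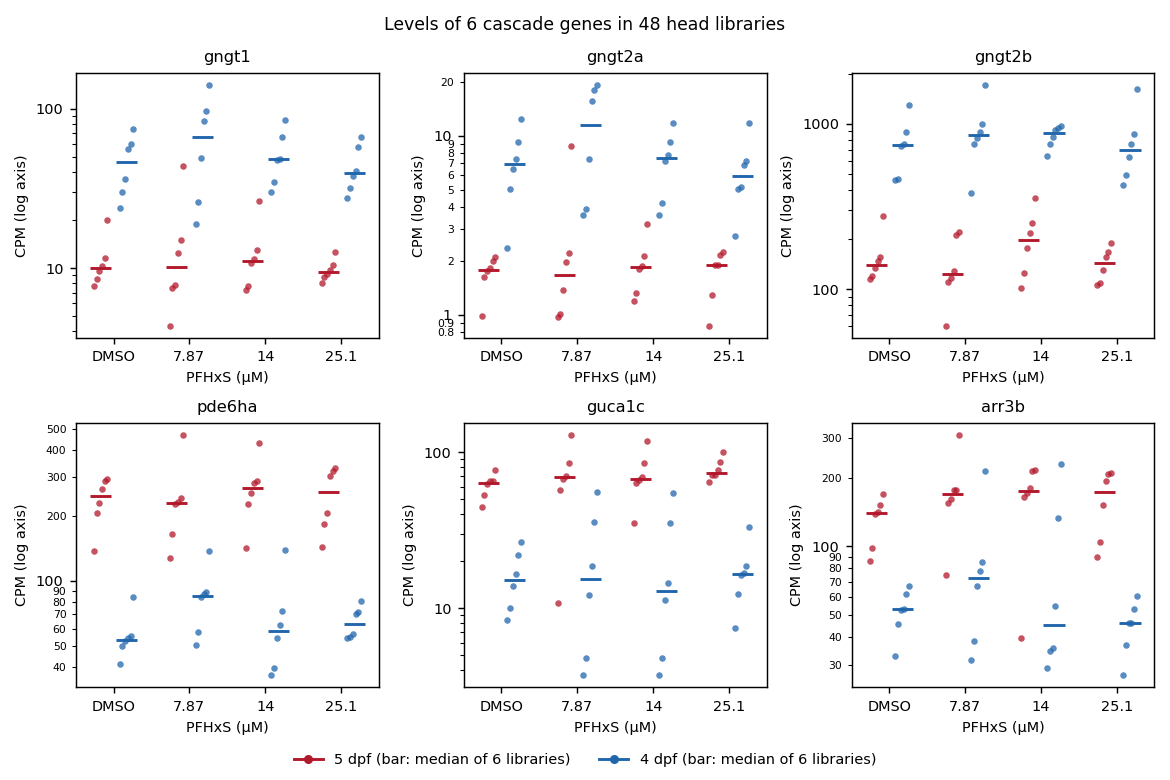
TMM-scaled CPM (log axis) of the 3 transducin gamma genes and of pde6ha, guca1c and arr3b against PFHxS concentration, with 5 dpf left of 4 dpf at each concentration. Each point is 1 library and each bar a median of 6. In DMSO heads all 6 libraries at 5 dpf lay below those at 4 dpf for the gamma genes and above them for the other 3, and in gngt2b all 24 libraries at 5 dpf lay below all 24 at 4 dpf.

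In phosphodiesterase 6, the inhibitory subunit gene of cones rose while no catalytic gene was called on the TMM scale. The cone inhibitory gene pde6ha (chromosome 6, 344423 to 346085), which holds the cone enzyme silent in the dark, had 137, 246 and 295 CPM at 5 dpf and 41.2, 53.6 and 84.3 CPM at 4 dpf. The ranges did not overlap, and the log2 fold change was 2.07 ± 0.29 (adjusted p 5.32e-07, edgeR). The catalytic cone gene pde6c was not called, with 719.7, 956 and 1009 CPM against 925, 1028 and 1109 CPM (-0.14 ± 0.14), and its sign turned to 0.56 under library totals and 0.68 on quantile values. Thus pde6ha came to 25.8% (13.6 to 40%) of pde6c within libraries at 5 dpf, against 5.21% (3.72 to 7.89%) at 4 dpf. The rod catalytic genes were not called either: pde6a had 26.6, 32.6 and 38.8 CPM at 5 dpf and 11.2, 19.7 and 26.2 CPM at 4 dpf (0.73 ± 0.45), and pde6b had 34.4, 36.1 and 50.3 and 27.2, 33.4 and 41.6 CPM (0.21 ± 0.32). All 6 libraries at 5 dpf exceeded every 4 dpf library for pde6a. With library totals pde6a (1.40) and pde6b (0.88) were called higher. Of the rod gamma genes, pde6gb was called lower (-0.53 ± 0.17; 0.15 under library totals) and pde6ga was not called (0.23 ± 0.42).

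Among the channel and exchanger genes, which carry the outer segment current, no member was called higher on the TMM scale. The rod channel beta gene cngb1a (-0.82 ± 0.19), the cone channel beta gene cngb3.2 (-0.68 ± 0.19) and the exchanger gene slc24a2 (-0.67 ± 0.17), which is also expressed in neurons, were called lower. Under library totals these stood at -0.13, 0.03 and 0.02. The cone alpha gene cnga3a had 42.2, 47.1 and 61 CPM at 5 dpf and 33.5, 39.7 and 48.9 CPM at 4 dpf (0.28 ± 0.35), and cnga3b (0.02 ± 0.25), cngb3.1 (-0.11 ± 0.24) and the rod exchanger gene slc24a1 (-0.44 ± 0.21) were not called. With library totals cnga3a (0.97) and cnga3b (0.73) were called higher, and cngb3.1 stood at 0.61 and slc24a1 at 0.25.

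Of the genes for calcium-sensing activators of guanylate cyclase, 3 were called higher at 5 dpf and none lower. The activator gene guca1c (chromosome 15, 2884711 to 2903476), expressed in cones, had 44.3, 63.7 and 77.4 CPM at 5 dpf and 8.37, 15.2 and 26.6 CPM at 4 dpf, and all 6 later libraries exceeded the earlier ones. Its log2 fold change was 1.92 ± 0.50, with an adjusted p of 0.00208 in edgeR's test. It overlaps mre11a on the opposite strand, and none of its counts was whole. At far lower levels guca1d had 1.82, 2.57 and 3.34 CPM against 0.272, 0.664 and 0.931 CPM (2.10 ± 0.57), and guca1g 0.998, 2.11 and 4.48 CPM against 0, 0.618 and 1.38 CPM (1.73 ± 0.51). Neither guca1e (-0.22 ± 0.52), guca1a (0.91 ± 0.47) nor guca1b (0.77 ± 0.36) was called. The cyclase gene gucy2d was called lower (-0.59 ± 0.16; 0.11 under library totals), and gucy2f was not (0.00 ± 0.23). Counts of guca1c came to 37.4% (23.2 to 41.2%) of those of gucy2d at 5 dpf and 6.46% (3.36 to 8.81%) at 4 dpf, with no overlap. The deposited coordinates place kat5b over both gucy2d and grk1b on the opposite strand. These genes lie far apart on chromosome 5 (starts 38123633 and 54161362), and whether kat5b is placed rightly was not checked. Of the 44 members, 9 were overlapped on the opposite strand, gnb3b, arr3a and grk1b among them. In 18 members under 24 of 48 libraries had whole counts, pde6ha (7 libraries) and arr3b (5) among them.

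Shut-off genes divided between paralogs. The cone arrestin gene arr3b (chromosome 14, 32837914 to 32850769), expressed in blue and ultraviolet cones of zebrafish, had 86.4, 140.1 and 170.1 CPM at 5 dpf and 32.9, 52.9 and 66.8 CPM at 4 dpf (1.33 ± 0.40; adjusted p 0.00707, edgeR). All 6 later libraries were above all 6 earlier ones. The paralog arr3a, of red and green cones, had 774, 906 and 1407 CPM against 907, 1289 and 1366 CPM and was not called (-0.32 ± 0.28; 0.35 under library totals and 0.54 on quantile values). Within libraries arr3b came to 14.1% (7.01 to 21.9%) of arr3a at 5 dpf, against 4.22% (2.57 to 7.36%) at 4 dpf, and 5 of 6 ratios at 5 dpf exceeded all 4 dpf ratios. The rod arrestin genes parted in the same way: saga had 65.1, 85.5 and 105 CPM against 50.6, 61.8 and 80.8 CPM (0.45 ± 0.30, not called), sagb was called lower (-0.50 ± 0.16; 0.19 under library totals), and saga came to 104% (63 to 107%) of sagb at 5 dpf and 51.1% (37.2 to 61.7%) at 4 dpf.

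Opsin kinases silence the receptor by phosphorylation. The rod gene grk1a had 54.1, 64.3 and 77.7 CPM at 5 dpf and 80.8, 109 and 129 CPM at 4 dpf and was called lower (-0.72 ± 0.15; -0.02 under library totals). The cone genes grk7a (451, 605 and 658 CPM against 426, 549 and 635 CPM; 0.12 ± 0.25), grk7b (0.67 ± 0.49) and grk1b (0.82 ± 0.45) were not called. Relative to grk1a, grk1b came to 82.2% (35.4 to 93.7%) at 5 dpf and 25.9% (12.8 to 47.3%) at 4 dpf, with 5 of 6 later ratios above all earlier ones. Of the recoverin genes, whose proteins hold the kinases back when calcium is high, rcvrn2 (49.6, 91.9 and 103 CPM against 23.8, 34.3 and 41.9 CPM; 1.32 ± 0.43) and rcvrna (1.16 ± 0.44) were called higher, while rcvrn3 (0.19 ± 0.20) and rcvrnb (0.58 ± 0.49) were not. The call of rcvrn2 was made in all 12 fits that left out a library, and that of rcvrna in 7 of 12 and not on quantile values. The membrane anchor of RGS9, rgs9bp, was called higher, with 1.39, 2.07 and 2.69 CPM against 0.272, 0.598 and 1.28 CPM (1.5 ± 0.46), and rgs9a was not called (0.10 ± 0.25).

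**Figure D3:**
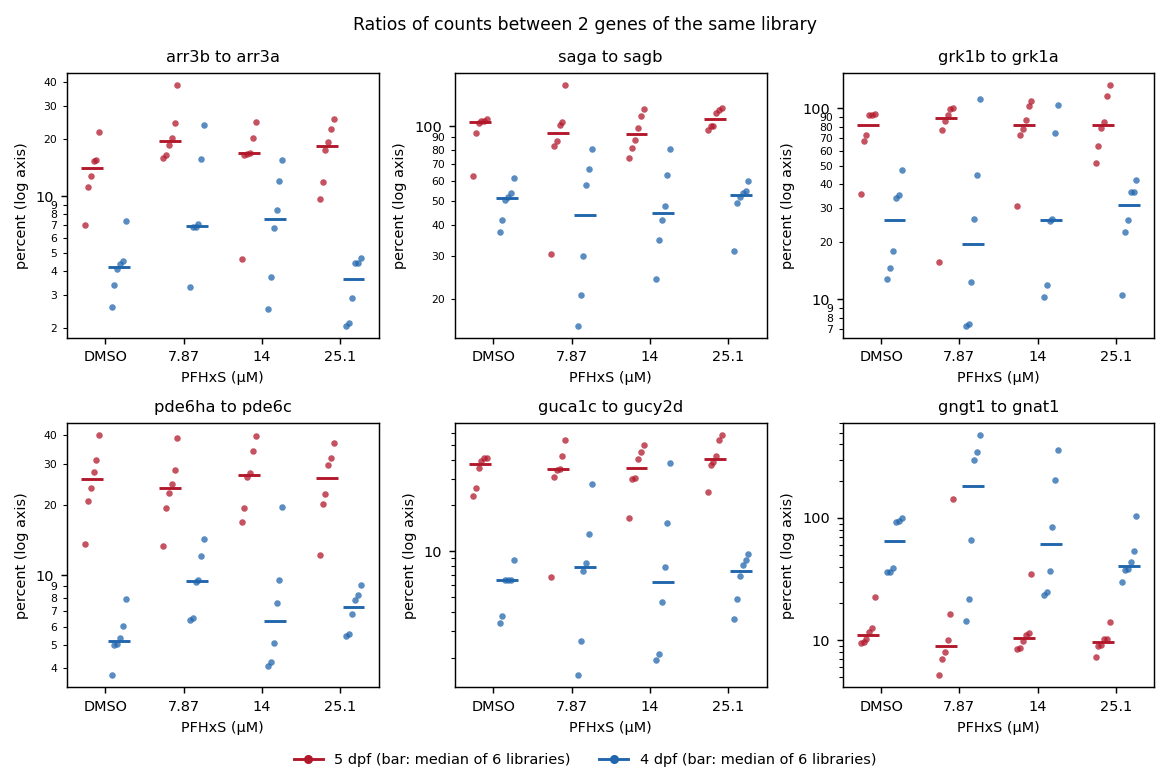
Ratios of the counts of 2 members within each library, in percent on a log axis, against PFHxS concentration, with 5 dpf left of 4 dpf. Points are libraries and bars medians of 6. In DMSO the median of arr3b to arr3a was 14.1% at 5 dpf and 4.22% at 4 dpf, and that of gngt1 to gnat1 was 10.9% and 65.3%.

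The same age comparison was made at each concentration, in libraries that none of the others share. Members called higher and lower numbered 11 and 9 of 44 at 7.87 µM (26.9% and 23.7% of all genes), 8 and 7 at 14 µM (22% and 19%), and 10 and 11 at 25.1 µM (25.8% and 21.2%). Unadjusted p under 0.05 were found for 21, 22 and 27 members, against 56.7%, 49.8% and 54.2% of all genes. Ranges that did not overlap were higher in 0, 2 and 9 members and lower in 1, 4 and 7 at the 3 concentrations. The background was 4.88%, 6.09% and 13.4% higher and 8.51%, 7.51% and 15.8% lower. In all 4 comparisons, DMSO included, 5 members were called higher (pde6ha, guca1c, guca1d, guca1g and rgs9bp) and 7 lower (gngt1, gngt2a, gngt2b, gnat2, gnb3a, gnb1a and cngb3.2). Of all genes 11.2% were called higher and 15.6% lower in all 4. Ratios did not separate equally at each concentration. That of arr3b to arr3a exceeded all 4 dpf ratios in 2, 5 and 6 of 6 libraries of 5 dpf at 7.87, 14 and 25.1 µM. In the same order these were 0, 1 and 6 for grk1b to grk1a and 4, 1 and 6 for gnat1 to gnat2. Ratios of pde6ha to pde6c were above in 5, 4 and 6, and those of gngt2b to gnat2 below in 5, 5 and 6. Log2 fold changes of gngt2b were -2.71, -2.04 and -2.48 at 7.87, 14 and 25.1 µM, and those of pde6ha 1.53, 2.00 and 1.94. For arr3b they were 1.04, 0.93 (not called) and 1.83. At 4 dpf its level spread widely at 14 and 7.87 µM, where library B had 229 and 213 CPM and the medians were 45.3 and 72.3 CPM. The same 2 libraries were highest in guca1c, with 55.1 and 55.7 CPM, and in rcvrn2, with 146 and 148 CPM. Without library B, 23 members were called at 14 µM (16 higher, 7 lower) and, without library E of 5 dpf, 17 there; without library B, 26 were called at 7.87 µM (17 higher, 9 lower). At 7.87 µM, 13 were called without library I of 4 dpf, 14 each without library E of 4 dpf or library D of 5 dpf, and 24 without library I of 5 dpf; fitting its 12 libraries alone gave 12.

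The columns of the table stand in a block of 32 and a block of 16, and whether these are sequencing pools is not given in the sources used here. The ages in DMSO were unevenly spread over them: the first 32 columns held 5 libraries of 5 dpf and 2 of 4 dpf, the last 16 held 1 and 4. Within the first 32 columns the log2 difference was -2.38 for gngt2b, 1.97 for pde6ha, 1.75 for guca1c and 1.49 for arr3b. In the last 16 it was -2.13, 1.44, 1.73 and 0.74 for the same genes in that order. A fit on the first 32 columns alone called 12 members, 1 higher and 11 lower. The higher one was pde6ha. There guca1c, guca1d, guca1g, arr3b, rcvrn2 and rgs9bp were not called, with log2 fold changes of 1.28 to 1.92.

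Marker genes of other cell types also differed with age on the TMM scale, where a change to library totals moves the median of all genes as given above. Summed levels of 5 liver genes were 1439 ± 343 CPM at 5 dpf and 212 ± 218 CPM at 4 dpf in DMSO, and those of 5 exocrine pancreas genes 1595 ± 656 and 44 ± 50.8 CPM (SD, n = 6). All 5 genes of each list were called higher. Lists of photoreceptor and bipolar cell genes leaned the other way. Called lower were 6 of 7 photoreceptor structure genes, 8 of 11 photoreceptor transcription factor genes and 4 of 5 bipolar cell genes, gnb3a among them. Of 7 visual opsin genes tested 3 were called lower and 2 higher, and rho, the rod opsin gene, had 4703, 6802 and 7566 CPM at 5 dpf against 11310, 14300 and 19770 CPM at 4 dpf (-1.23 ± 0.28). The summed level of 7 opsins ranged from 15460 to 17010 CPM at 5 dpf and from 23660 to 30650 CPM at 4 dpf. The 8 pineal genes, gngt1 among them, summed to 36.6 to 61.8 CPM and 86 to 174.6 CPM, and exorh, the opsin of the pineal organ, was called lower (-1.45 ± 0.29). The sum does not stand for the whole list: 2 of the 8 were called higher and 3 lower. Log2 fold changes were positive in 5, with a median of 0.41. Of 4 Müller glia genes 2 were called higher and 1 lower, and they summed to 282.5 ± 58.3 CPM at 5 dpf and 161.5 ± 32.9 CPM at 4 dpf. Of 5 pigment epithelium genes 3 were called lower, of 4 lens genes 2 and of 4 olfactory neuron genes 1. The part of these lists in the members' changes was not tested.

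Rod and cone members were then summed per library. The 11 rod members came to 510 ± 41.9 CPM at 5 dpf and 614 ± 79.6 CPM at 4 dpf in DMSO, and the 20 cone members to 5362 ± 501 and 7034 ± 897 CPM (SD, n = 6). Such sums follow the genes with the most counts and do not stand for every member. Of the 20 cone members 5 were called higher and 5 lower, with a median log2 fold change of 0.05. Of the 11 rod members 0 were called higher and 5 lower, with a median of -0.44. The rod sum as a share of the cone sum was 9.61 ± 1.41% at 5 dpf and 8.78 ± 1.07% at 4 dpf, and the ranges overlapped. On the log2 scale the ratio differed by 0.13, and the SD of single libraries within groups was 0.20. No test of the ratio was run. The difference depended on how the classes were measured. With a core of 5 rod and 6 cone genes, taken from alpha and catalytic subunits, kinases and arrestins, the difference was 0.47. The core did not hold every gene of these kinds, and the rod arrestin gene sagb, called lower, was not in it. With the mean log2 CPM of all members the difference was -0.45. For the core the SDs within groups were 0.28 at 5 dpf and 0.22 at 4 dpf, and for the mean log2 CPM 0.16 at both ages. The direction of rods against cones thus turned with the measure. At 7.87, 14 and 25.1 µM the difference of the summed ratio between ages was 0.14, 0.14 and 0.30, against SDs within groups of 0.20, 0.16 and 0.19, so that the value at 25.1 µM exceeded the SD. That SD is of single libraries and is wider than the error of a difference of group means.

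**Figure D4:**
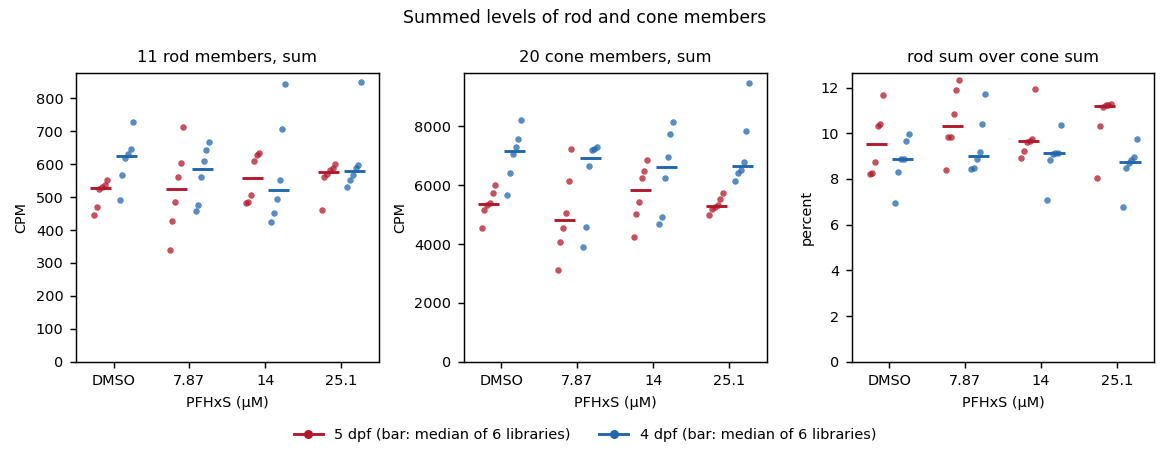
Summed TMM-scaled CPM of the 11 rod members and the 20 cone members, and the rod sum as a percentage of the cone sum, against PFHxS concentration, with 5 dpf left of 4 dpf. Points are libraries and bars medians of 6. Cone sums in DMSO averaged 5362 CPM at 5 dpf and 7034 CPM at 4 dpf, and the ranges of the rod share overlapped between ages and between concentrations. Sums follow the most counted genes: of the 20 cone members 5 were called higher by age in DMSO and 5 lower.

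The second set of comparisons asked whether PFHxS changed the cascade. No member was called: 0 of 44 passed in any of the 6 comparisons of a concentration with DMSO of the same age, where edgeR called 0% of all genes higher or lower as well. DESeq2 and limma on the quantile values also called 0 members. At an unadjusted p under 0.05 there were 6, 3 and 0 members at 7.87, 14 and 25.1 µM at 4 dpf, against 12%, 5.05% and 2.61% of all genes, and 1, 1 and 1 at 5 dpf, against 4.69%, 0.729% and 0.671%. Counts were simulated for 25.1 µM and DMSO at 5 dpf, over 20723 genes of which 200 were changed. All group means were those of DMSO at 4 dpf, and each library was drawn independently. The spread of each gene was the one fitted over all 8 groups. The changed genes were drawn from those with an average log2 CPM over 1. The test recovered 3% of changes of 1.5-fold, 56% of 2-fold and 93% of 4-fold. In the real comparison 0.671% of all genes had an unadjusted p under 0.05, fewer than that threshold alone would give. Whether the spread shared by the 8 groups fits these groups was not tested, so recovery in the real comparison may differ. Changes of 1.5-fold were thus mostly not detected in this simulated comparison, as an average over the changed genes. The SE differs between members, so this average is not the limit for a single member. The other comparisons of PFHxS with DMSO were not simulated. Recovery was not simulated for genes counted less often, as several members were.

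At 4 dpf the members' median log2 fold changes were -0.10, -0.06 and -0.02 at 7.87, 14 and 25.1 µM, with 18, 20 and 21 of 44 positive. Among all genes the medians were 0.05, 0.01 and -0.01, and 55.9%, 50.7% and 48.6% were positive. With the letter as a replicate block 12, 12 and 16 members were positive, with medians of -0.29, -0.28 and -0.05. The 5 liver and the 5 exocrine pancreas genes all had positive log2 fold changes at each concentration, with medians of 0.80, 1.65 and 1.21 for liver and 0.85, 0.79 and 1.98 for pancreas. None of them was called, and their part in the members' values was not tested. Single libraries moved these counts: 7 were positive at 14 µM without library B of that group, and at 25.1 µM 10 without its library F and 13 without library E of DMSO. The median turned to 0.02 at 7.87 µM without its library E, and to 0.03 and 0.04 at 25.1 µM without its library E or library F of DMSO. No member had ranges apart from DMSO at 4 dpf; of all genes 0.14%, 0.0241% and 0.0627% were higher and 0.116%, 0.082% and 0.0386% lower in this way. The smallest p of any member at 4 dpf was that of guca1b, at the lowest concentration. The cyclase activator gene guca1b had 1.21, 1.92 and 4.84 CPM at 7.87 µM and 0.532, 0.825 and 2.66 CPM in DMSO, with overlapping ranges (1.15 ± 0.36; p 0.00243, adjusted p 0.215, edgeR). It passed in the absence of library F of DMSO, its highest vehicle library, which gave 1 member called. For guca1g the levels were 0.27, 1.2 and 3.48 CPM at 7.87 µM and 0, 0.618 and 1.38 CPM in DMSO (1.18 ± 0.52), and for pde6gb the log2 fold change was -0.38 ± 0.17. At 14 µM the rod exchanger gene slc24a1 had 5.9, 7.19 and 13.6 CPM, against 6.54, 12.7 and 14.6 CPM in DMSO (-0.54 ± 0.21), and gucy2d (-0.42 ± 0.16) and cngb1a (-0.46 ± 0.19) followed, each with an adjusted p of 0.971 in edgeR's test. At 25.1 µM the smallest p belonged to gnb1b (-0.20 ± 0.14), pde6c (-0.17 ± 0.14) and slc24a2 (-0.21 ± 0.17), with an adjusted p of 1. Levels of pde6c were 786, 941 and 1014 CPM at 25.1 µM and 925, 1028 and 1109 CPM in DMSO. The log2 difference for pde6c within each block of columns, with 4 exposed and 2 vehicle libraries and then with 2 and 4, was -0.25 and -0.03. For gnb1b it was -0.31 and -0.02, and for slc24a2 the sign differed between the blocks, with -0.40 and 0.05.

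At 5 dpf 31, 41 and 33 of 44 members had positive log2 fold changes at 7.87, 14 and 25.1 µM, with medians of 0.08, 0.17 and 0.10. Among all genes 51.8%, 53.7% and 52.2% were positive, with medians of 0.01, 0.02 and 0.01. The 3 comparisons share their DMSO libraries. These counts depended on the fit: with the letter as a replicate block 20, 28 and 30 were positive, with medians of -0.02, 0.06 and 0.05. At 7.87 µM 22 were positive without library D (median 0.001), 25 without library C (0.02) and 35 without library I (0.19). Under library totals 42, 36 and 35 were positive, with medians of 0.29, 0.10 and 0.14 for the members and 0.24, -0.03 and 0.03 for all genes. Of all genes 77.1%, 44.6% and 55.4% were positive under that scaling. At 14 µM log2 fold changes were also positive in 4 of 4 lens genes (median 0.49), 5 of 5 pigment epithelium genes (0.37), 4 of 4 olfactory neuron genes (0.19) and 7 of 7 opsins (0.24), with none called. Summed lens genes ranged from 987 to 1924 CPM at 14 µM and from 879.6 to 1427 CPM in DMSO, and the part of these lists in the members' values was not tested.

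The cone channel gene cnga3b (chromosome 1, 10771457 to 10776548) was, over the 6 comparisons, the only member whose exposed and vehicle ranges did not overlap, with 27.9, 32 and 37.5 CPM at 25.1 µM and 17.4, 20.4 and 24.5 CPM in DMSO. Of all genes 0.0965% were higher and 0.0579% lower in this way at 25.1 µM, 0.082% and 0.0434% at 14 µM, and 0.14% and 0.256% at 7.87 µM. Its log2 fold change was 0.61 ± 0.25 (p 0.0186, adjusted p 1, edgeR), and it ran from 0.56 to 0.67 over the alternatives. Among the first 32 columns cnga3b stood 0.58 higher in 4 exposed than in 5 vehicle libraries, and among the last 16 columns 0.54 higher in 2 than in 1. The alternatives, the blocks and the ratio to cnga3a use the same libraries in which cnga3b stood out among the members. They are thus not independent of that choice. At 7.87 and 14 µM its medians were 22.8 and 26 CPM, and the slope against concentration at 5 dpf was 0.03 ± 0.01 (SE) log2 units per µM with an adjusted p of 1. Relative to cnga3a in the same library, cnga3b came to 57.2% (51.4 to 68.4%) at 25.1 µM and 41.9% (39.9 to 47.2%) in DMSO at 5 dpf. At 14 µM this ratio was 55.3% (38.4 to 67%) and at 7.87 µM 40.2% (38.4 to 125.4%). At 4 dpf it was 57.7% (34.3 to 86.1%) at 25.1 µM and 51.6% (32.4 to 70.3%) in DMSO, with overlapping ranges. At 4 dpf cnga3b had 15.1, 19.3 and 28.5 CPM at 25.1 µM and 12.6, 22 and 24.8 CPM in DMSO, and the test of the difference between ages gave 0.56 ± 0.35 with an adjusted p of 1 (edgeR).

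Other members with small p at 5 dpf overlapped with DMSO. At 7.87 µM they were rcvrn3 (0.47 ± 0.20), cngb1a (0.38 ± 0.19) and slc24a2 (0.32 ± 0.17), each with an adjusted p of 0.986 in edgeR's test. At 14 µM they were guca1b (0.81 ± 0.34), pde6ga (0.82 ± 0.41) and cngb1a (0.29 ± 0.19), and at 25.1 µM, after cnga3b, guca1e (0.90 ± 0.51) and slc24a1 (0.29 ± 0.21), all with an adjusted p of 1. The guca1b gene had 2.28, 3.49 and 4.24 CPM at 14 µM and 0.867, 1.74 and 2.87 CPM in DMSO. The sign of cngb1a at 14 µM differed between the blocks of columns, with a log2 difference of 0.38 in the first 32 and -0.14 in the last 16. For guca1e at 25.1 µM it was 0.22 and 2.22. For rcvrn3 the levels were 441, 608 and 836 CPM at 7.87 µM and 411, 446 and 465 CPM in DMSO.

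The main alpha, catalytic, kinase and arrestin genes were not called at any concentration. At 5 dpf gnat2 had medians of 1516, 1221, 1505 and 1341 CPM in DMSO, 7.87, 14 and 25.1 µM, gnat1 90.1, 91.9, 95.8 and 102 CPM, and pde6c 956, 934, 1064 and 975 CPM. Over the same groups the medians of grk7a were 605, 553, 610.4 and 564 CPM and those of arr3a 906, 865, 915 and 902 CPM. Rod arrestin saga had 85.5, 93.4, 96.2 and 99.5 CPM. In library I of 7.87 µM several members stood far below the other 5 libraries, with 30.4 CPM of gnat1 (others 76.7 to 151), 4.15 CPM of pde6a (others 25.9 to 47) and 10.8 CPM of guca1c (others 57.4 to 129). In that library gngt1 was highest, at 43.8 CPM (others 4.35 to 15). At 4 dpf the level of pde6a ran from 1.93 CPM, in library H, to 36.6 CPM at 7.87 µM, and from 11.2 to 26.2 CPM in DMSO. Leaving out any single library of these groups left 0 members called, except for library F of DMSO at 4 dpf.

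**Figure D5:**
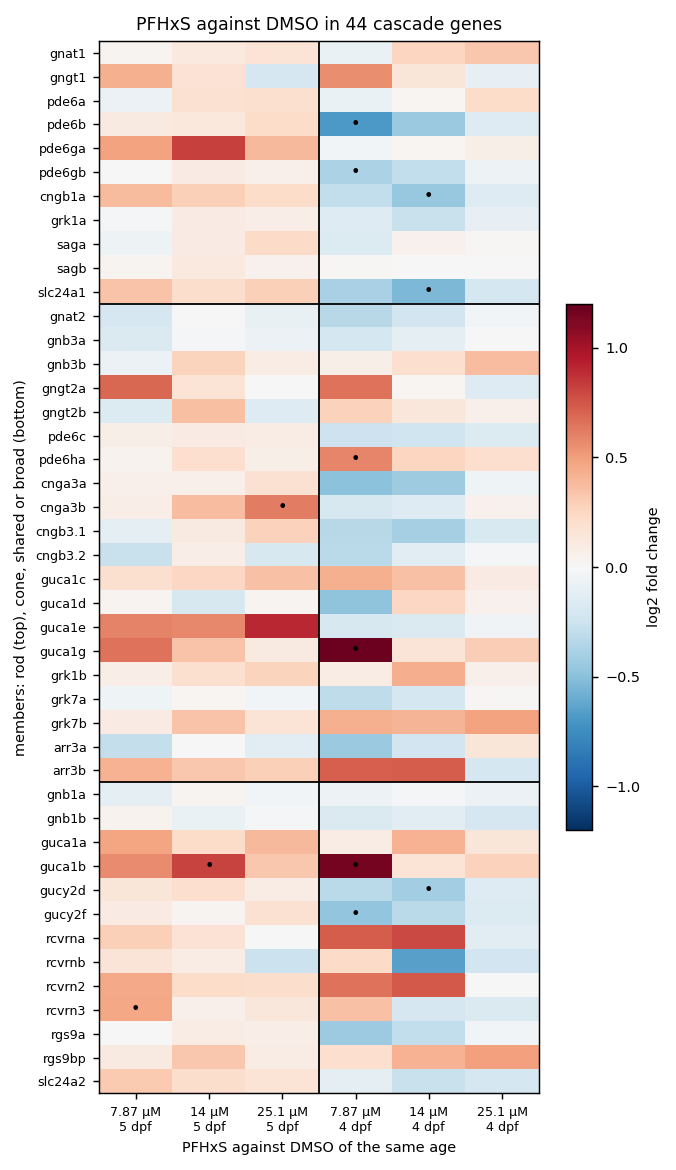
Log2 fold change (color) of 44 members in PFHxS against DMSO of the same age, at 7.87, 14 and 25.1 µM for 5 dpf (left) and 4 dpf (right). Rows run from rod members at the top through cone to shared or broad members, and dots mark an unadjusted p under 0.05 in edgeR's test. No cell has an adjusted p under 0.05, and 6 dots stand at 7.87 µM and 4 dpf.

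Differences of the rod-to-cone ratio under exposure were below the SD of single libraries, which is wider than the error of a difference of group means. No test of the ratio was run. The log2 ratio of rod to cone sums differed from DMSO by 0.12, 0.03 and -0.03 at 7.87, 14 and 25.1 µM at 4 dpf (SD within groups 0.18 to 0.19), and by 0.13, 0.04 and 0.14 at 5 dpf (0.18 to 0.21). From mean log2 CPM the differences were -0.118, -0.095 and -0.046 at 4 dpf and 0.069, 0.052 and 0.016 at 5 dpf. Over core members they were 0.098, 0.082 and 0.054, and 0.051, 0.075 and 0.202. The sign at 4 dpf thus depended on the measure. Tests of whether the effect of a concentration differed between ages called 0 members at 7.87, 14 and 25.1 µM, with 3, 3 and 0 at an unadjusted p under 0.05, against 6.56%, 2.31% and 1.84% of all genes. The rod genes slc24a1 and cngb1a and the cyclase gene gucy2d were the 3 at both 7.87 and 14 µM. Slopes against concentration called 0 members at both ages, and 0.0049% of all genes higher at 5 dpf, with 2 at an unadjusted p under 0.05 at 5 dpf and 0 at 4 dpf, against 2.06% and 0.926% of the genes tested there.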

How the data were processed

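The authors deposited expected counts per gene for 48 libraries, with reads aligned by STAR 2.5.3a and quantified in Partek 8.0.19.0428 on GRCz11, per the submitters' processing notes; annotation, multimapping and use of strand are not given in the sources used here. The deposited quantile-normalized log2 values, also made by the authors, served as an alternative. Expected counts were rounded, scaled by TMM, and filtered with filterByExpr. All 48 libraries were fitted with 8 group means in edgeR 4.0.16 (quasi-likelihood; R 4.3.3), with Benjamini-Hochberg adjustment over 20723 genes and a threshold of 0.05; the procedure was tested on simulated data. Alternatives used limma 3.58.1, DESeq2 1.42.0, other scalings and filters, blocks, and single libraries left out. By rule, levels were given for 16 key genes (cnga1 not analysed here) and fold changes for every member called by age in DMSO and the 3 smallest p per PFHxS comparison; other levels were added after values were seen. The members and lists were chosen with earlier results of these data known. Same-lettered libraries deviated together, with every correlation over 0.1, in 1 of 28 pairs of groups. That rule is strict, and median correlations ran from 0.134 to 0.27 between groups of 4 dpf. Between groups of 5 dpf they ran from -0.045 to 0.427. The main fit did not use the letter, so a partial pairing by letter was not modelled in it.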

Additional observations from a re-analysis of the deposited data

Results flagged for a closer look

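Of 224 sets of 6 libraries examined (27 genes and the rod-to-cone ratio in 8 groups), 20 (8.93%) had 1 library far from the other 5, measured by its gap to the nearest one; chance gives about 1 in 20 sets. Library I of 7.87 µM at 5 dpf gave 7 of these. It was low in pde6a (4.15 CPM), pde6b (11.3 CPM), saga (25.6 CPM), guca1c (10.8 CPM), cnga3a (8.16 CPM) and cnga3b (10.2 CPM), and high in gngt2a (8.8 CPM, the others at most 2.21 CPM).

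In DMSO at 5 dpf library C was low in pde6c (720 CPM), grk7a (451 CPM) and gnb1b (199 CPM), and library H in gngt2a (0.979 CPM). In DMSO at 4 dpf library E was low in arr3a (907 CPM) and library B in slc24a1 (6.54 CPM). At 14 µM and 5 dpf library H was low in gnat2 (964 CPM) and library E in arr3b (39.4 CPM, the others at least 165.3 CPM). At 4 dpf library D of 25.1 µM was low in slc24a1 (6.65 CPM), library C of 25.1 µM had 0 CPM of guca1g, and library A of 14 µM was high in cnga3b (32.1 CPM, the others at most 17.2 CPM). At 5 dpf the log2 ratio of rod to cone sums was -3.64 in library G of 25.1 µM, below the others, and -3.07 in library H of 14 µM, above the others.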

How the results depend on the processing

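Of 1056 values of single genes under alternatives (the key, called and smallest-p members), 987 kept their direction and their side of the threshold. The rest lost a call in 43 cases, gained one in 13 and changed sign in 13. Most of the values were refits without a single library, and many belonged to members not called. They thus do not measure how stable the calls were. Of the calls by age in DMSO, 7 of 8 higher and 3 of 14 lower were made under all scalings. In DMSO by age, library totals turned pde6gb to 0.148, sagb to 0.19, pde6c to 0.557, cngb3.2 to 0.027, arr3a to 0.348, gnb1b to 0.357, gucy2d to 0.106 and slc24a2 to 0.024 on the log2 scale. The quantile values turned gnat2 to 0.251, pde6c to 0.679, arr3a to 0.544 and gnb1b to 0.237, and the first 32 columns, which hold 5 libraries against 2, turned grk7a to -0.034. Outside those values, members not called by age also changed sign in the first 32 columns, pde6ga to -0.381, cnga3b to -0.264, gnb3b to -0.079, rgs9a to -0.055 and guca1e to 0.092. The cause was not tested.

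Members called by age numbered 12 in DMSO in the first 32 columns, which hold fewer libraries. Under library totals they numbered 33 at 25.1 µM, 40 at 14 µM and 39 at 7.87 µM. On quantile values 24 were called at 14 µM, and in a fit of its 12 libraries alone 12 at 7.87 µM. With single libraries left out the counts ran from 20 to 22 in DMSO, 16 to 22 at 25.1 µM, 11 to 23 at 14 µM and 13 to 26 at 7.87 µM. For 7.87 µM against DMSO at 4 dpf they ran from 0 to 1, and for the other 5 comparisons with DMSO they were 0.

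With the letter as a replicate block, 29 members were called by age at 14 µM and 24 each in DMSO, at 25.1 µM and at 7.87 µM. Same-lettered libraries deviated together (every correlation over 0.1) in 1 of 28 pairs of groups, DMSO and 25.1 µM at 4 dpf, where the block left 0 members called. Its effect on the counts of positive members stands beside those counts.

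The rod-to-cone difference between ages, over core members alone, was 0.467 in DMSO, 0.615 at 25.1 µM, 0.46 at 14 µM and 0.42 at 7.87 µM. From mean log2 CPM it was -0.454, -0.392, -0.307 and -0.267 in the same order, and at 7.87 µM against DMSO at 4 dpf it was -0.118. The cause was not tested. Depth was 16.6 M counts or more per library; whether depth or the spread between pools limited the calls was not tested.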
